A study of Mus musculus with 40 samples.

Results

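The nuclear genes of the mitochondrial respiratory chain were followed in bulk RNA sequencing of mouse kidney after ischaemia-reperfusion injury (IRI, in which blood flow is stopped and restored), after sham surgery, and after IRI with injection of human mesenchymal stromal cells (MSC). Members were all gene names that begin with Nduf, Sdha to Sdhd, Sdhaf, Uqcr, Uqcc, Cox and a digit, or Atp5. Of 131 such names, 15 pseudogenes were skipped and 0 were skipped for disagreeing counts of the shared Control libraries, which left 116 members of the 55862 names in the temporal table. They comprised 41 subunit genes and 8 assembly factors of complex I, 4 and 4 of complex II, 8 and 3 of complex III, 20 and 11 of complex IV, and 17 subunit genes of complex V (ATP synthase). A low-count filter left 110 members for testing in the temporal table and 111 in the therapy and sham tables.

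All kidneys carried the wild-type C57BL/6 genotype in the labels, which give no age and tie no library to an animal. The temporal table held Control kidneys with no treatment named and IRI kidneys at 6, 24, 48 and 72 h after reperfusion. The therapy table held the same Control libraries, a group labelled AKI (IRI kidneys, 6 h after reperfusion), and IRI kidneys given bone marrow MSC (BM-MSC) or umbilical cord MSC (UC-MSC), for which no hour is labelled. The MSC were injected right after reperfusion. The sham table held kidneys without surgery and kidneys taken 24 h after surgery without IRI. The treatment field of the latter reads IRI, while their source name states that no IRI was done. Each group held 4 libraries, and p-values measure the spread between these libraries, which may be technical.

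Complex I takes electrons from NADH and complex II from succinate; both pass them through complex III and cytochrome c to oxygen at complex IV, and ATP synthase makes ATP from the resulting proton gradient. Most subunits are encoded in the nucleus and imported into mitochondria, where assembly factors help to build the complexes without remaining in them. Proximal tubule cells, the main reabsorbing cells of the kidney cortex, are rich in mitochondria and rely on this pathway for their energy.

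The promoters of 3 genes are shown because they hold the same motif while the transcripts moved apart: Sdha and Sdhd fell after IRI and Uqcc2 rose. NRF1 is a transcription factor known to act on many respiratory chain genes, and capitals mark the GC-rich NRF1-type motif on either strand. Each line gives the 250 bases before the gene's start, 5′ to 3′ on the gene's strand, from RefSeq (build GRCm38.p6). All 3 genes lie on the minus strand, Sdha at chr13:74350241-74350490, Sdhd at chr9:50603850-50604099 and Uqcc2 at chr17:27133892-27134141.
Sdha: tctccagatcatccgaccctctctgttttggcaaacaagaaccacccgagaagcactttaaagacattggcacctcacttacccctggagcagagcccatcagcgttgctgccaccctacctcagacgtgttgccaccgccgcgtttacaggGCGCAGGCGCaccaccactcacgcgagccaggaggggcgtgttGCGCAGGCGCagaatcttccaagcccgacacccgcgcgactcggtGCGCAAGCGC
Sdhd: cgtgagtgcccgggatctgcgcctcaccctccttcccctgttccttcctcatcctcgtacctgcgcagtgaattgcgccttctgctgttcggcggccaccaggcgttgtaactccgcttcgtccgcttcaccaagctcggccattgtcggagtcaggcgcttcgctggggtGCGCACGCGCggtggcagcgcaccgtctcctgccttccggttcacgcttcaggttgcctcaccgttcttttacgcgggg
Uqcc2: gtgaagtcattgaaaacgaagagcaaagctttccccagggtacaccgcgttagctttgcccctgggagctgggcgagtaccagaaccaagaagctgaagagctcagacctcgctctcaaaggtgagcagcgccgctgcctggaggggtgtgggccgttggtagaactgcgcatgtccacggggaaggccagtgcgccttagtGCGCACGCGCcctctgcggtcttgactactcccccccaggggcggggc
The printed Sdha window held 3 matches and the windows of Sdhd and Uqcc2 held 1 each. RefSeq windows of 300 bases (250 before to 50 after the start) were matched by symbol for 91 of the 116 members, and 22 of them (24.2%) held that motif on either strand, against 5.19% of all 27025 symbols and 10.2% of the 11839 symbols tested in the temporal table. Counted independently of it and of each other, on both strands, the ETS-type motif CCGGAAG stood in 27 members (29.7%, against 18% of tested symbols), the YY1-type motif AAGATGGC in 14 (15.4%, against 4.73%) and the ERR-type motif TNAAGGTCA in 3 (3.3%, against 1.02%). At 24 h the median log2 fold change was 0.01 in the 22 members with the NRF1-type motif and −0.10 in the 68 tested members without it.

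Library totals ran from 4640921 to 17533711 counts in the temporal table, from 12949029 to 18475869 in the therapy table and from 26601247 to 37097091 in the sham table. Members took 2.88% to 3.16% of all counts in Control and 1.57% to 1.72% at 72 h, and 1.81% to 1.998% in sham controls against 0.874% to 1.25% at 24 h after sham surgery. Mitochondrial ribosomal RNA moved the other way, from 0.181% to 0.221% of counts in Control to 2.96% to 3.02% at 72 h. Proximal tubule markers summed to 16830 to 20490 CPM (counts scaled to a common library size with TMM factors) in Control, 2976 to 8864 at 6 h, 1955 to 3650 at 24 h and 1335 to 1449 at 72 h; 7 of 14 tested markers were lower at 6 h and 14 of 14 at 24, 48 and 72 h, and none was at 0 throughout a group. In sham kidneys 13 of 15 fell, and the sum went from 36060 to 42620 CPM down to 15710 to 20960. Thick ascending limb and distal tubule markers summed to 5734 to 6379 CPM in Control and 754 to 954 at 72 h (8 of 9 lower, 0 higher). In sham kidneys these summed to 1532 to 1857 CPM in controls and 1523 to 2116 at 24 h (1 of 9 lower, 0 higher). The part of these shifts in the results was not tested, and in bulk tissue fewer cells of a type and less RNA per cell cannot be told apart. In the temporal table, 36 of 36 names with repeated lines that differed in both column blocks paired every line of the Control and IRI 6 h columns with every line of the 24, 48 and 72 h columns, as a join of separately made tables gives. In the therapy table the same held for 38 of 38 such names between the AKI columns and the rest. Differences across these joins and differences between the joined tables cannot be told apart. In the members, UC-MSC library 4 and AKI library 1 stood apart from the rest of their groups. The single gene Cep85 took 0.0107% to 0.0135% of counts in Control and 9.74% to 12.9% at 72 h, and its part in the results was not tested.

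**Figure D1:**
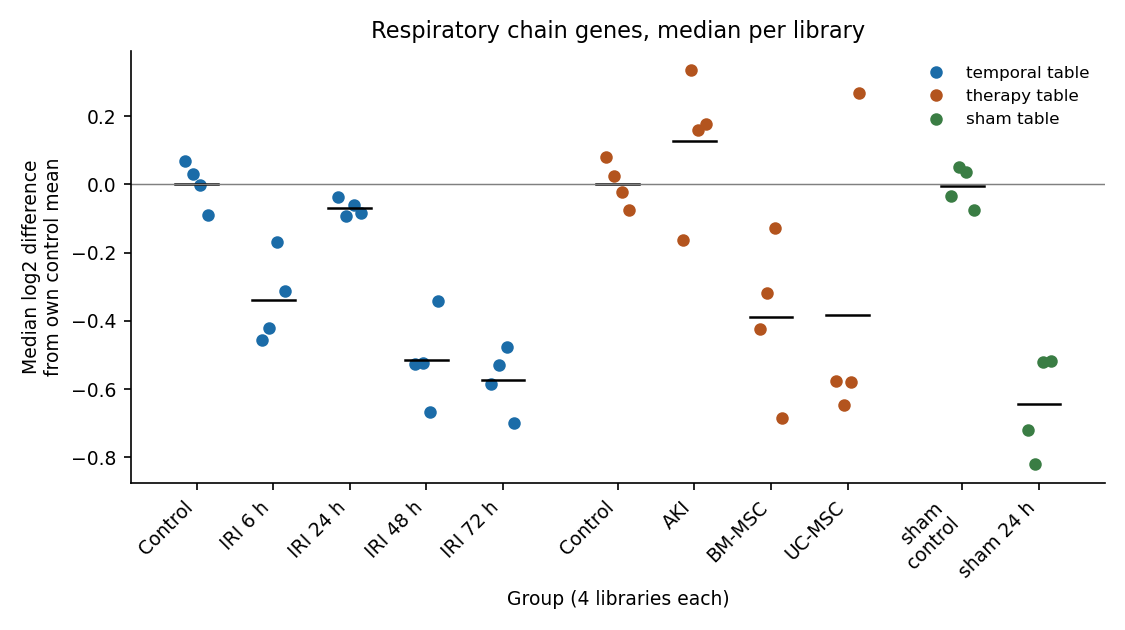
Median over the tested members of the log2 difference from the mean of the table's own controls, for each library (points) in each group, with the group mean as a bar. Values at 24 h after IRI lie at −0.092 to −0.037 while those at 24 h after sham surgery lie at −0.819 to −0.517, and UC-MSC library 4 (0.268) and AKI library 1 (−0.162) lie apart from their groups.

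At 6 h after reperfusion most of the movement was downward. Of 110 tested members, 35 fell and 2 rose, against 8.51% and 10.4% of all 16653 genes tested, 18.9% in either direction (edgeR quasi-likelihood test, Benjamini-Hochberg adjusted p under 0.05, as in all comparisons). The median log2 fold change was −0.35 over the members and −0.07 over all genes. The falls were spread over the complexes: 5 of 7 core and 10 of 30 accessory subunits of complex I, 3 of 4 subunits of complex II, 2 of 3 core subunits of complex III, 6 of 11 common subunits of complex IV and 8 of 17 subunits of complex V. Among the 25 tested assembly factors, 1 fell and 1 rose. Without IRI 6 h library 2, 24 members were called in place of 37.

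Sdha, the flavoprotein of complex II that oxidises succinate, gave 956, 1003, 1048 and 919 CPM in Control and 416, 562, 606 and 585 CPM at 6 h. The groups did not overlap, and the log2 fold change was −0.86 ± 0.16 (SE) (adjusted p = 4.5e-04). Ndufs1, the largest iron-sulfur subunit of the NADH-oxidising arm of complex I, gave 321, 358, 346 and 319 CPM in Control and 129.5, 189.8, 215 and 223 CPM at 6 h (−0.83 on the log2 scale, adjusted p = 9.8e-04). Ndufa4, first assigned to complex I and now counted with complex IV, gave 616, 556, 520.3 and 518 CPM in Control and 262, 297, 383 and 361 CPM at 6 h (−0.76, adjusted p = 3.6e-04). The complex I assembly factor Ndufaf4 fell from 64.8, 62.2, 63.8 and 60.5 CPM to 33.6, 36.5, 34.4 and 43.1 CPM (−0.77, adjusted p = 0.0046), with no overlap. The 2 members that rose were the complex III assembly factor Uqcc2 and Cox6b2, the testis form of a complex IV subunit. Without IRI 6 h library 1 Uqcc2 was no longer called (0.44, adjusted p = 0.067).

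At 24 h members of the same complex moved in both directions. In all, 31 fell and 21 rose, against 20.2% and 21.8% of all genes tested (42% in either direction), so the share that rose (19.1%) was near the background. The median was −0.08 (0.05 over all genes); with library totals in place of TMM it was 0.07 and that of all genes 0.20. Among catalytic and core subunits, 5 of 7 of complex I, 4 of 4 of complex II and 3 of 3 of complex III fell and none of them rose. Among accessory subunits, in complex I 10 of 30 rose and 8 fell, and in complex III 2 of 5 rose and 0 fell. Of the common forms of complex IV, 2 of 11 rose and 2 fell. The difference between core and accessory subunits was not tested.

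**Figure D2:**
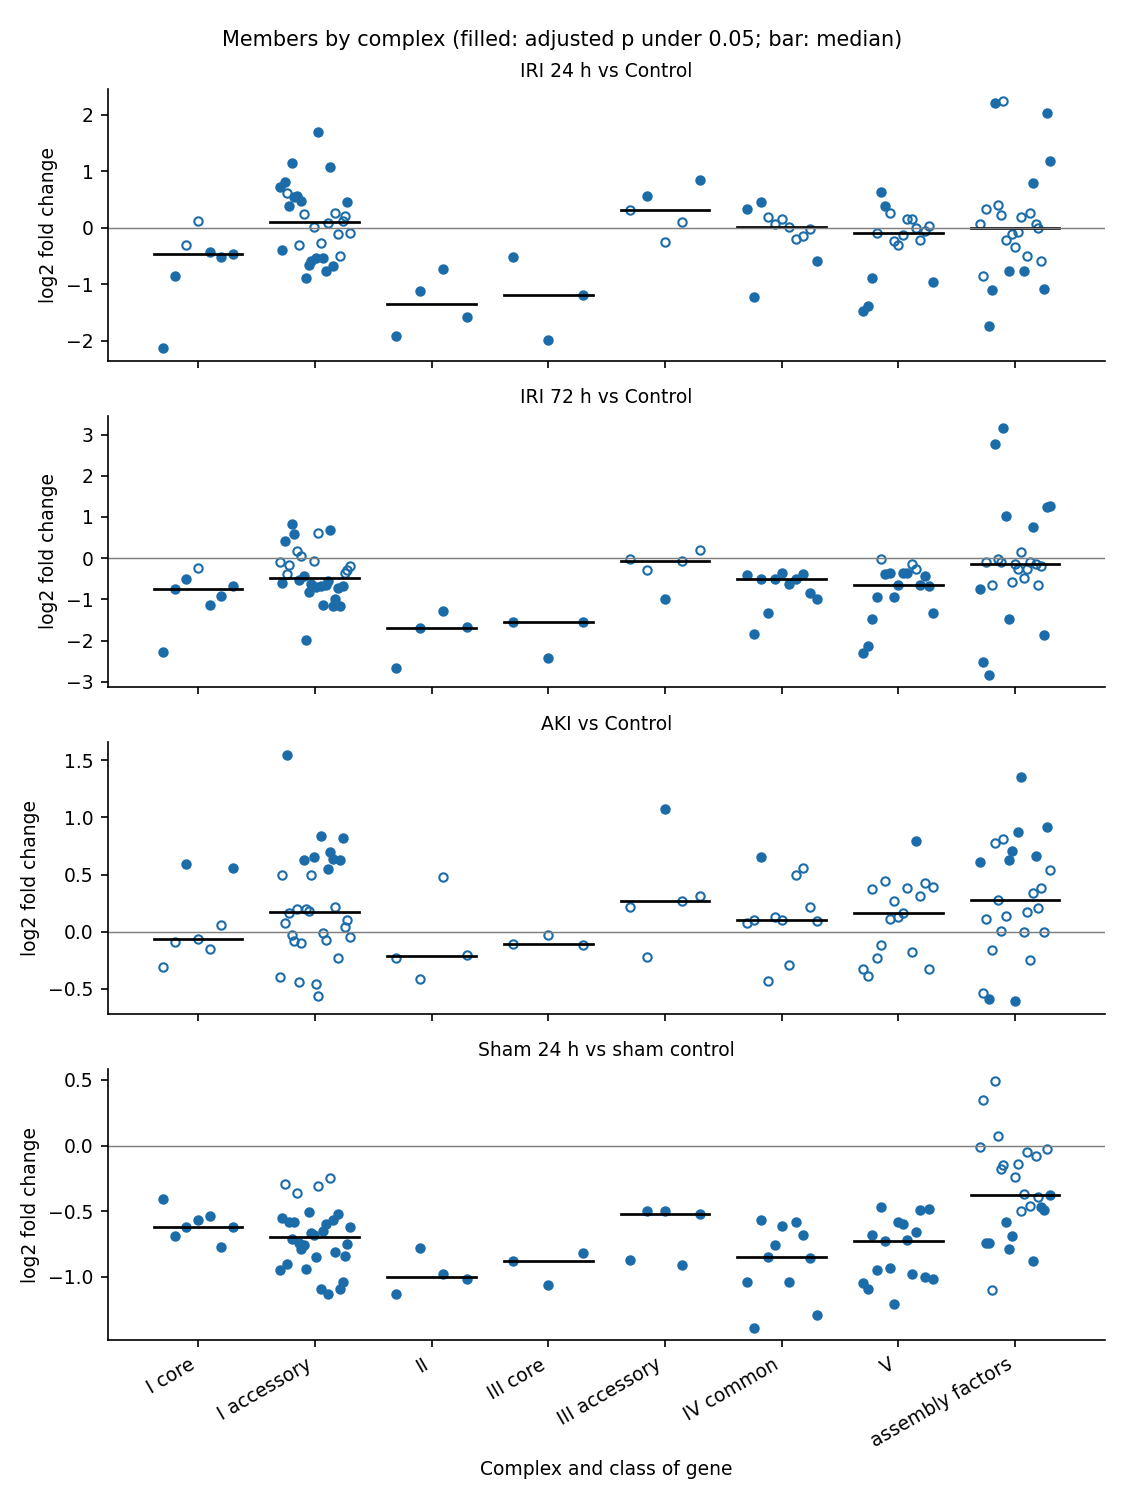
Log2 fold change of each tested member against its own controls (points) by complex and class, for IRI 24 h, IRI 72 h, AKI and sham 24 h, with filled points for adjusted p under 0.05 and a bar at the median. All 4 complex II subunits lie below 0 in the IRI 24 h, IRI 72 h and sham panels, while assembly factors and complex I accessory subunits spread to both sides of 0 at 24 h.

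In complex II the 4 subunits moved together after IRI. Sdha was at 242, 209.9, 310.2 and 273 CPM at 24 h, 163, 188, 121 and 166 CPM at 48 h and 137, 197, 129 and 159 CPM at 72 h, with log2 fold changes of −1.92 ± 0.17 (SE), −2.62 ± 0.17 (SE) and −2.66 ± 0.17 (SE). Sdhb, the iron-sulfur subunit, fell from 541, 579, 554 and 529 CPM in Control to 294, 234, 245 and 239 CPM at 24 h and 139, 179.7, 162 and 199.9 CPM at 72 h. No library of these later times reached the lowest Control library for either gene. The membrane anchor Sdhc went from 413, 435, 463 and 412 CPM to 294, 226, 261 and 256 CPM at 24 h (−0.73, adjusted p = 1.8e-05) and 194, 168, 185 and 167 CPM at 72 h (−1.27). The other anchor, Sdhd, went from 398, 417, 442 and 402 CPM to 116, 125, 168 and 151 CPM at 24 h (−1.57, adjusted p = 2.1e-08) and 121, 108, 132 and 156 CPM at 72 h (−1.68). The medians over the 4 subunits were −1.34, −1.80 and −1.69 at 24, 48 and 72 h. The 4 assembly factors of complex II did not follow: none fell at 24 h and 1 did at 48 h, and Sdhaf1 rose at 24 h (0.79, adjusted p = 0.015) and 72 h (0.75, adjusted p = 0.016). The Sdhaf1 calls were lost without IRI 24 h library 1 (0.63, adjusted p = 0.083), and without IRI 72 h library 1 (0.60, adjusted p = 0.065) or 4 (0.56, adjusted p = 0.077), and both were lost without the low-count filter (adjusted p = 0.071 and 0.084).

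In complex I the deepest fall at 24 h was that of Ndufs1, which gave 76.5, 63.6, 87.8 and 77.8 CPM at 24 h, 97.7, 107, 78.4 and 92.5 CPM at 48 h and 85.6, 56.6, 55.7 and 78.6 CPM at 72 h. Its log2 fold changes were −2.13 ± 0.18 (SE), −1.84 ± 0.17 (SE) and −2.28 ± 0.18 (SE). Every later library lay below every Control library. Ndufv1, the flavin-binding subunit that oxidises NADH, gave 408, 456, 424 and 406 CPM in Control and 225, 150.4, 166 and 220.5 CPM at 48 h (−1.15, adjusted p = 2.9e-07). Ndufa9, an accessory subunit at the junction of both arms, gave 266, 280.5, 277 and 272 CPM in Control, 168, 129.7, 151 and 140.3 CPM at 24 h and 72.5, 74.1, 50.5 and 80.05 CPM at 72 h (log2 fold changes −0.89 and −1.98). Ndufab1, the mitochondrial acyl carrier protein, went from 169, 164, 171 and 152 CPM to 90.4, 89.9, 108 and 83.3 CPM at 72 h (−0.82, adjusted p = 2.7e-05). These 3 genes also showed no overlap between Control and the times given.

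The opposite direction was seen in some of the small accessory subunits of the same complex. Ndufb7 gave 155, 149.8, 152 and 139 CPM in Control, 341, 337, 294 and 285 CPM at 24 h and 237, 193, 263 and 263 CPM at 72 h. Its log2 fold changes were 1.08 ± 0.13 (SE) and 0.68 ± 0.13 (SE) (adjusted p = 4.3e-07 and 1.0e-04). Ndufa2 gave 222, 196, 166 and 176 CPM in Control, 458, 430.2, 416 and 386 CPM at 24 h and 331, 326, 417 and 266 CPM at 72 h (1.15 and 0.82). Both stayed above every Control library at each of these times. Ndufb2 gave 11.1, 13.9, 12.2 and 13.6 CPM in Control and 50.6, 43.2, 37.5 and 33.5 CPM at 24 h (1.70, adjusted p = 3.8e-05), and at 72 h it was at 0.61 (adjusted p = 0.071). At 72 h it was called higher with DESeq2 (0.75, adjusted p = 0.022), with its size factors (0.75, adjusted p = 0.03) and with only the compared groups in the fit (0.70, adjusted p = 0.034).

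In complex III the 3 core subunits fell while the small subunits did not at 24 h. Uqcrc2, core protein 2, gave 468, 551, 514 and 501 CPM in Control, 125, 115, 141 and 134 CPM at 24 h and 91.3, 128, 72.3 and 84.5 CPM at 72 h (log2 fold changes −1.98 ± 0.19 (SE) and −2.43 ± 0.19 (SE)). Uqcrc1, core protein 1, gave 565, 680.3, 662 and 598 CPM in Control, 482, 410.1, 425 and 446 CPM at 24 h and 162, 229.6, 232 and 231 CPM at 72 h (−0.51 and −1.55). Uqcrfs1, the Rieske iron-sulfur protein, gave 609, 654, 696 and 610.2 CPM in Control, 291, 240, 312 and 285 CPM at 24 h and 213, 201, 204 and 250.5 CPM at 72 h (−1.19 and −1.56). All 3 lay below every Control library at both times, and the 24 h call of Uqcrc1 was lost with library totals in place of TMM (−0.36, adjusted p = 0.054). The small subunit Uqcrq rose at 24 h, from 488, 475, 412 and 434 CPM to 998, 800, 692 and 772 CPM (0.85, adjusted p = 3.6e-04), and was at 0.20 (adjusted p = 0.34) at 72 h, where it was called with only the compared groups (0.28, adjusted p = 0.037).

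The assembly factors of complex III, which act on cytochrome b, diverged from each other. Uqcc2 gave 49.7, 37.03, 36.8 and 34.4 CPM in Control, 90.02, 53.4, 60.4 and 46.3 CPM at 6 h, 178, 172, 151 and 149.8 CPM at 24 h and 86.3, 85.3, 112 and 86.4 CPM at 72 h. The log2 fold changes were 0.66 ± 0.18 (SE), 2.04 ± 0.18 (SE) and 1.23 ± 0.18 (SE), and only the 6 h range met that of Control. Uqcc3 rose from 40.3, 36.96, 33.6 and 32.4 CPM to 99.2, 80.8, 72.9 and 74.3 CPM at 24 h (1.19, adjusted p = 3.4e-06) and was still higher at 72 h (1.27). Uqcc1 fell, from 88.9, 89.5, 96.8 and 86.2 CPM to 43.1, 43.2, 40.1 and 44.9 CPM at 24 h and 25.4, 9.64, 48.7 and 15.3 CPM at 72 h (−1.08 and −1.86). The 72 h libraries were uneven for Uqcc1, with library 3 above the others. Of the 3 promoters printed, that of Uqcc2 belongs to the gene that rose.

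**Figure D3:**
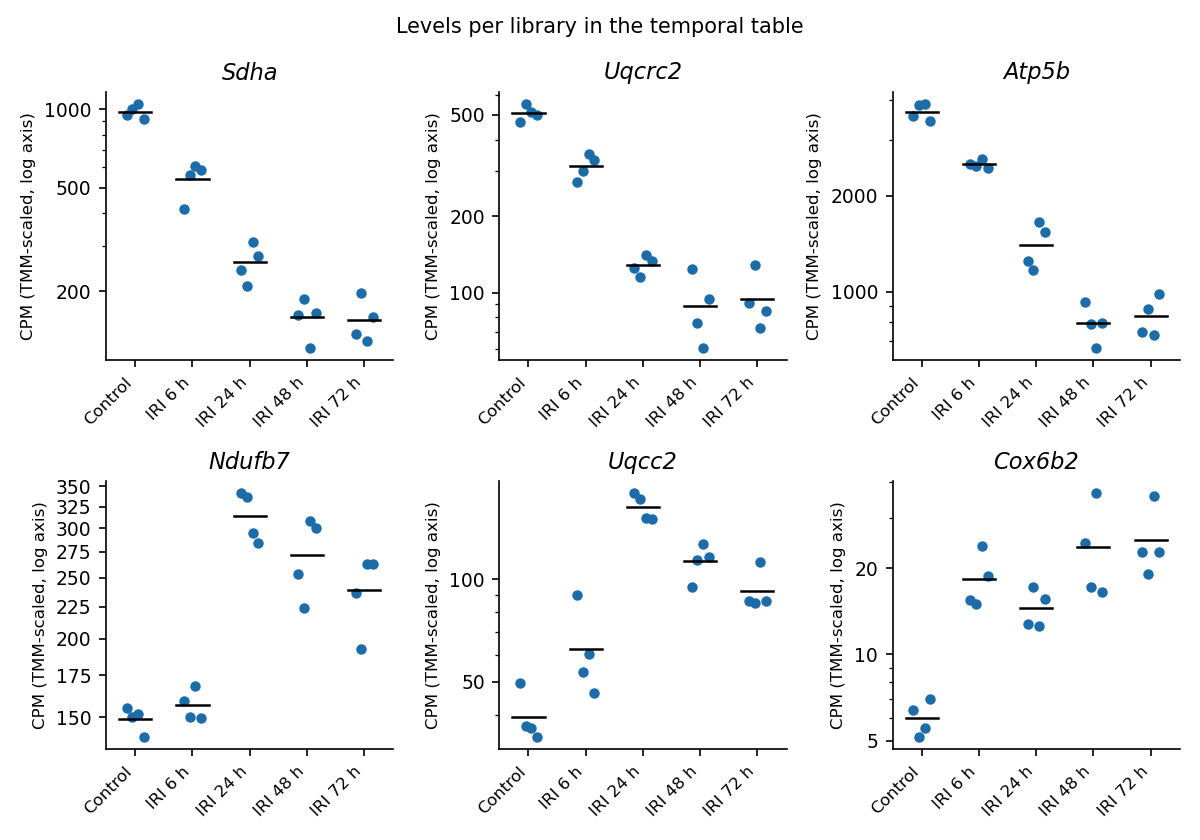
TMM-scaled CPM per library (points, log axis) and group mean (bar) in the temporal table for Sdha, Uqcrc2 and Atp5b, which fell, and Ndufb7, Uqcc2 and Cox6b2, which rose. At 24 h all 4 libraries of the first 3 genes lie below every Control library and all 4 libraries of the last 3 above.

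In complex IV the common subunits parted at 24 h and fell later. Cox5a gave 236, 273, 268 and 253 CPM in Control, 101, 99.9, 124 and 118 CPM at 24 h and 73.6, 76.7, 63.5 and 71.6 CPM at 72 h (log2 fold changes −1.22 ± 0.14 (SE) and −1.85 ± 0.14 (SE)). Cox4i1, subunit 4 in its common form, gave 1086, 1042, 1041 and 999 CPM in Control, 1325, 1279, 1373 and 1307 CPM at 24 h and 817, 717, 941 and 1037 CPM at 48 h. It was higher at 24 h (0.34, adjusted p = 0.018), was not called at 48 h (−0.25, adjusted p = 0.072) and was lower at 72 h (−0.42, adjusted p = 0.0034). Cox5b gave 405, 325, 308 and 308 CPM in Control and 530, 461, 434 and 424 CPM at 24 h (0.46, adjusted p = 0.0085), and fell by 72 h (−0.51). The 24 h rise of Cox5b was not called without IRI 24 h library 1 (0.35, adjusted p = 0.067), and that of Cox4i1 not without Control library 4, IRI 24 h library 1 or IRI 24 h library 3 (0.30 to 0.32, adjusted p = 0.051 to 0.06). Both rises were lost without the low-count filter (adjusted p = 0.052 for Cox5b and 0.14 for Cox4i1). At 48 h Cox4i1 was called lower without library 3 or 4 (−0.31 and −0.37) and without the low-count filter (−0.35, adjusted p = 0.039). Cox6a1 gave 1308, 996, 1137 and 1151 CPM at 24 h and 497, 411, 396 and 527 CPM at 48 h, against 1059, 998, 987 and 962 CPM in Control. The step from 24 to 48 h was −1.33 ± 0.12 (SE) (adjusted p = 2.9e-07). Cox7a2 and Cox8a are the common forms of 2 small subunits. Cox7a2 was at 0.02 at 24 h (adjusted p = 0.92) and at −0.57 at 48 h, from 327, 329, 337 and 347 CPM in Control to 224, 195, 216 and 266 CPM. Cox8a went from 821, 747, 756 and 685 CPM in Control to 475, 375, 363 and 464 CPM at 48 h (−0.84, adjusted p = 2.2e-06).

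Complex IV assembly factors moved in both directions. Cox15, which acts in haem a synthesis, gave 93.9, 119, 126 and 103 CPM in Control and 32.6, 9.03, 6.21 and 14.6 CPM at 72 h (−2.83 ± 0.36 (SE), adjusted p = 6.9e-07). Cox10, the enzyme of the preceding step, gave 24.9, 35.8, 32.2 and 31.6 CPM in Control and 6.13, 18.5, 15.8 and 33.7 CPM at 72 h (−0.75, adjusted p = 0.035), and 72 h library 4 lay within the Control range. The Cox10 call was lost without Control library 2, 3 or 4 or 72 h library 1 or 3 (adjusted p = 0.055 to 0.078), with DESeq2 (adjusted p = 0.065), with its size factors (adjusted p = 0.08) and with only the compared groups (adjusted p = 0.2). Cox17, a copper chaperone, gave 1.08, 1.27, 1.52 and 1.96 CPM in Control, 9.36, 6.27, 5.59 and 6.06 CPM at 24 h and 5.69, 9.64, 10.6 and 14.1 CPM at 72 h. Its rise (2.21 and 2.77) started from a level of few counts. Cox7a2l, which helps to join complexes III and IV into supercomplexes, rose late: 156, 163, 159.7 and 163 CPM in Control, 109, 143, 156 and 143 CPM at 24 h, 174, 214, 199 and 217 CPM at 48 h and 278, 362, 267 and 404 CPM at 72 h. It was called between 48 and 72 h (0.71 ± 0.14 (SE), adjusted p = 0.0077), as was the copper-handling factor Cox11, which fell (−2.39, adjusted p = 0.041). The Cox11 call was lost without 48 h library 1 or 4 or 72 h library 4 (−2.20 to −2.02, adjusted p = 0.063 to 0.085). With only the compared groups neither was called (adjusted p = 0.18 for Cox7a2l and 0.62 for Cox11).

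In ATP synthase 3 of 5 subunits of the F1 head fell at 24 h and 1 rose. Atp5b, the catalytic beta subunit, gave 3568, 3855, 3884 and 3427 CPM in Control, 1250, 1172, 1652 and 1541 CPM at 24 h and 749, 885, 733 and 980.4 CPM at 72 h (log2 fold changes −1.39 ± 0.14 (SE) and −2.14 ± 0.14 (SE)). Atp5a1, the alpha subunit, gave 2713, 2928, 3015 and 2714 CPM in Control, 957, 921, 1154 and 1086 CPM at 24 h and 536, 620, 552 and 616 CPM at 72 h (−1.47 and −2.29). Atp5e, the epsilon subunit of the same head, rose at 24 h from 324, 311, 302 and 274 CPM to 530.1, 522, 423 and 412 CPM (0.64, adjusted p = 3.5e-04). At 72 h Atp5e was at −0.02 (adjusted p = 0.89).

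Subunit c of the rotor ring is encoded by 3 genes whose mature proteins are the same, and their mix shifted. Atp5g1 gave 310.5, 289.9, 306 and 295 CPM in Control, 408, 435, 353 and 367 CPM at 24 h and 228, 223, 214 and 250.5 CPM at 72 h, with a rise at 24 h (0.38, adjusted p = 0.025) and a fall at 72 h (−0.39, adjusted p = 0.016). Atp5g3 gave 860.2, 875, 844 and 792 CPM in Control, 714, 647, 799 and 719 CPM at 24 h and 439, 409.9, 448 and 448 CPM at 72 h (−0.23 and −0.95, the first not called). Atp5g2 gave 231, 205, 218 and 199 CPM in Control and 167, 147, 213 and 138 CPM at 72 h (−0.36, adjusted p = 0.042). The 24 h rise of Atp5g1 was not called without Control library 2, 3 or 4 or IRI 24 h library 1 or 2 (0.31 to 0.38, adjusted p = 0.053 to 0.1), and the 72 h fall of Atp5g2 not without Control library 1 or 3 or 72 h library 2 or 4 (adjusted p = 0.066 to 0.089). The 24 h rise of Atp5g1 was also lost without the low-count filter (0.32, adjusted p = 0.14), and its 72 h fall with DESeq2 (−0.26, adjusted p = 0.085) and with its size factors (−0.26, adjusted p = 0.1). The fall of Atp5g2 was also lost with DESeq2, its size factors, library totals, only the compared groups and names with disagreeing counts kept (−0.36 to −0.23, adjusted p = 0.052 to 0.19). Atp5g3 was called at 24 h without IRI 24 h library 3 (−0.29, adjusted p = 0.047) and with DESeq2 (−0.22, adjusted p = 0.016). As a share of the counts of the 3 genes, Atp5g1 was 22.1, 21.2, 22.4 and 22.9% in Control, 29.9, 32.4, 25 and 27.4% at 24 h and 31.1, 26.3, 38.3 and 33.3% at 48 h. Every 24, 48 and 72 h library had a higher Atp5g1 share than every Control library. Sham surgery showed a shift the same way without overlap, from 26.6 to 30.2% in sham controls to 32.3 to 38.8% at 24 h. AKI lay above Control too (23.1 to 26.3%), BM-MSC overlapped it (20.9 to 24.5%) and UC-MSC lay below it (14.7 to 20.6%).

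By 48 and 72 h the falls were broader. At 48 h 61 members fell and 10 rose, against 26.8% and 26.9% of all genes (53.7% in either direction), and at 72 h 61 fell and 12 rose, against 29.6% and 26.7% (56.3%). The medians were −0.48 and −0.50 (0.01 and −0.04 over all genes). In complex IV 9 of 11 common forms were lower at 48 h and 11 of 11 at 72 h, and in complex V 14 of 17 subunits were lower at each time. The steps between the late groups do not cross the join. From 24 to 48 h 52 members fell and 1 rose, against 12.1% and 9% of all genes, and from 48 to 72 h 1 fell and 1 rose, against 3.63% and 2.04% (5.67% in either direction). The step from 6 to 24 h, with 39 members higher and 12 lower (14.9% and 13.9% of all genes), crosses the join.

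Coding length went with the direction at 24 h. A limit of 600 coding bases was chosen after the values were seen. Of the subunits with at least that length, 15 of 19 fell and 0 rose (median −0.86), while of the shorter ones 9 of 61 fell and 17 rose (median 0.13). All tested genes showed a smaller gap in the same direction, with medians of −0.07 and 0.34. Of all long genes 2957 of 12196 fell and 2420 rose, and of all short ones 228 of 1718 fell and 579 rose. The share of long subunits that fell was above that of all long genes. The share of short subunits that rose was below that of all short genes. In AKI the medians of the long and short subunits were −0.09 and 0.16, and of all genes 0.02 and 0.36. In sham kidneys the medians of the long and short subunits were −0.69 and −0.73, and those of all long and short genes 0.05 and −0.28. The part of transcript length in these values was not tested.

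At 24 h after sham surgery the members fell almost as a block. Of 111 tested, 82 fell and 1 rose, against 13.1% and 7.7% of all 17781 genes tested, and the median was −0.66 (0.04 over all genes). All 7 core subunits of complex I, all 4 subunits of complex II, all 8 subunits of complex III, all 11 common forms of complex IV and all 17 subunits of complex V were called lower. Of 25 assembly factors 9 were lower and 0 higher, at a median of −0.38; whether subunits and assembly factors differed was not tested. Levels cannot be compared between the sham and temporal tables, whose controls differ, and only changes against each table's own controls are set side by side.

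Sdha gave 218, 309, 214 and 297 CPM in sham controls and 111, 93.5, 139.5 and 129 CPM at 24 h (−1.13 ± 0.15 (SE), adjusted p = 3.8e-05). Cox5a gave 36.4, 67.5, 35.9 and 55.4 CPM in sham controls and 15.1, 19.9, 17.99 and 21.4 CPM at 24 h (−1.39, the largest fall among the members called). Cox4i1 gave 680.3, 746, 699 and 714 CPM in sham controls and 323, 281, 396 and 384 CPM at 24 h (−1.04, adjusted p = 9.2e-06). None of these 3 genes overlapped between the groups. Ndufa2, which rose after IRI, fell here from 152, 164, 168 and 141 CPM to 86.1, 80.7, 107 and 109 CPM (−0.71, adjusted p = 2.9e-04).

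The change at 24 h after IRI was then set against that after sham surgery by fitting both tables together and testing the difference of the differences. Of 111 members, 49 were higher after IRI than after sham and 3 were lower, against 13.8% and 10.5% of all 19616 genes tested; the median difference was 0.55 (0.07 over all genes). The 3 that fell further after IRI were Ndufs1 (−1.70 ± 0.22 (SE), adjusted p = 4.4e-07), Uqcrc2 (−0.90 ± 0.24 (SE), adjusted p = 0.0058) and Sdha (−0.76 ± 0.23 (SE), adjusted p = 0.014). The other 3 complex II subunits did not pass the test (Sdhb −0.31 ± 0.18 (SE), Sdhc 0.27 ± 0.16 (SE), Sdhd −0.52 ± 0.22 (SE)). Sdhd was called lower with DESeq2 (−0.58, adjusted p = 0.04), with library totals (−0.62, adjusted p = 0.033) and without sham control library 2 (−0.67, adjusted p = 0.031). Of 110 members tested in all 3 fits, 29 were lower in both settings and 14 were higher after IRI and lower after sham. Another 39 were lower after sham and not called after IRI, and for 12 of these the difference itself was not called. Among the 14 were Ndufa2 (1.88 ± 0.22 (SE)), Cox4i1 (1.40 ± 0.16 (SE)), Uqcrq (1.39 ± 0.22 (SE)), Atp5e (1.13 ± 0.17 (SE)) and Atp5g1 (1.13 ± 0.18 (SE)). The largest difference called was that of Uqcc2 (2.09 ± 0.25 (SE), adjusted p = 1.3e-07), which sham surgery left at −0.03 (adjusted p = 0.93). In short subunits 40 of 61 were higher after IRI and in long ones 3 of 19, with medians of 0.99 and 0.07. Of all short genes 617 of 1885 were higher and of all long ones 1659 of 13107, with medians of 0.64 and −0.09. The temporal and sham libraries come from separate tables, and differences between the tables that their own controls do not carry cannot be told apart from this difference. IRI 24 h and Control also lie on opposite sides of the join in the temporal table. What differs across that join enters this comparison and cannot be told apart from it either.

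**Figure D4:**
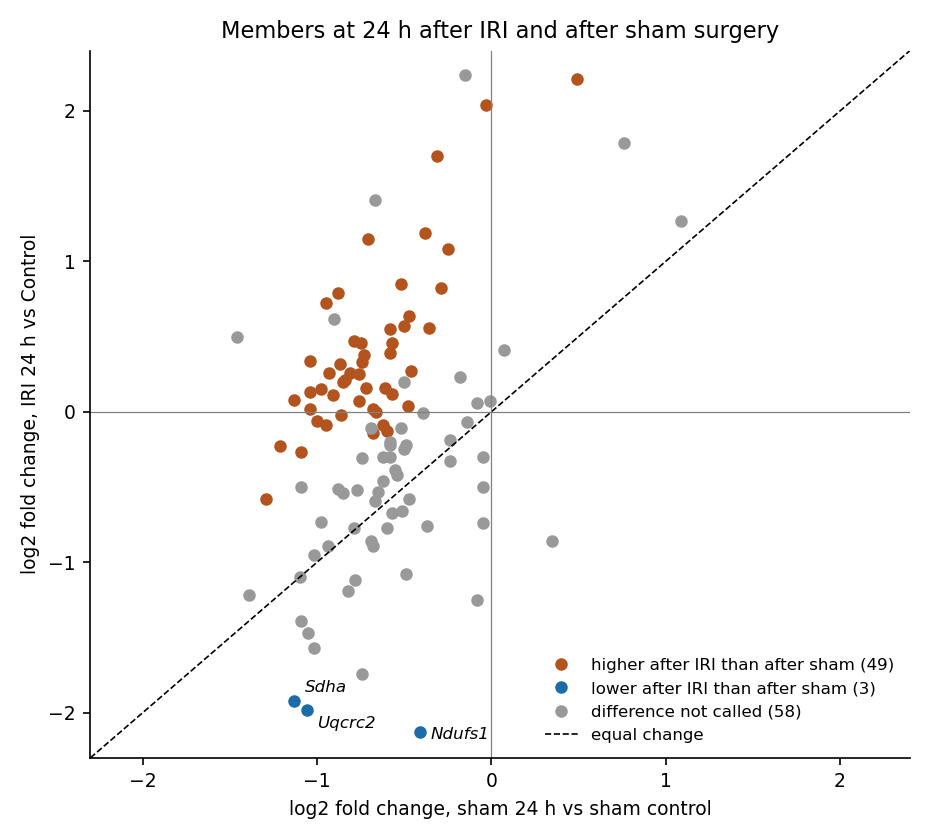
Log2 fold change at 24 h after sham surgery (x axis, against sham controls) and at 24 h after IRI (y axis, against Control) for the 110 members tested in all fits, with colours for the call on their difference. Nearly all points lie left of 0 on the x axis, and those whose difference was called higher spread upward from the diagonal line of equal change, with Ndufs1, Uqcrc2 and Sdha below it.

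In AKI, of the therapy table, 23 members rose and 5 fell, against 20% and 15.1% of all 16623 genes tested; the share that rose (20.7%) was near the background. The median was 0.14 (0.06 over all genes), and with library totals it was −0.02 (−0.10). Leaving out single libraries gave 16 to 37 called, with 16 without Control library 3 or 4 and 37 without AKI library 1. Complex I held most of the rises, with 9 of 30 accessory and 2 of 7 core subunits and 4 of 8 assembly factors higher. No subunit of complex II was called. AKI and IRI 6 h carry the same hour and library names in the labels but hold different counts, and both are set against the same Control libraries; Sdha was at −0.86 at 6 h and at −0.23 (adjusted p = 0.5) in AKI.

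AKI library 1 differed from libraries 2 to 4 in the balance of the members. For Sdha the AKI libraries gave 1149, 664, 597 and 677 CPM, against 891, 926, 956 and 859 CPM in Control, and for Atp5b 3495, 2490, 2211 and 2228 CPM against 3326, 3558, 3544 and 3204 CPM. Library 1 was the highest of the 4 for both. For Ndufb7 they gave 129.9, 274, 243 and 247 CPM against 145, 138, 139 and 130.2 CPM (0.70, adjusted p = 0.031), and for Uqcc2 26.1, 97.7, 80.1 and 72.2 CPM against 46.3, 34.2, 33.5 and 32.2 CPM (0.92, adjusted p = 0.026). Library 1 was the lowest of the 4 for these. Without it 29 members rose and 8 fell, and the shares of all genes in that refit are not given here. Both calls were lost when most other single libraries were left out, for Ndufb7 each Control library and AKI libraries 2 to 4 (adjusted p = 0.059 to 0.099), for Uqcc2 Control libraries 2 to 4 and AKI libraries 2 to 4 (adjusted p = 0.053 to 0.1). Both were also lost with library totals (adjusted p = 0.052 for Ndufb7 and 0.069 for Uqcc2), and Uqcc2 with only the compared groups (adjusted p = 0.071). Ndufaf4 rose without such an exception, from 60.4, 57.5, 58.2 and 56.5 CPM in Control to 117, 115, 105 and 88.4 CPM in AKI (0.87 ± 0.14 (SE), adjusted p = 3.5e-04). The largest rises among subunits of the common chain were those of Ndufa12 of complex I, from 62.6, 103, 94.7 and 43.7 CPM to 174, 262, 174 and 284 CPM (1.55, adjusted p = 0.0078), and Uqcrb of complex III, from 204, 165, 152 and 145 CPM to 276, 397, 354 and 375 CPM (1.07, adjusted p = 5.3e-04).

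After BM-MSC most members lay below Control without passing the test. Of 111 tested, 101 had a log2 fold change under 0 and the median was −0.38 (0.04 over all genes), but 4 fell and 1 rose, against 2.36% and 6.56% of all genes (8.92% in either direction). Leaving out single libraries gave 1 to 5 called, with 1 without Control library 1 or BM-MSC library 4. Fitted with Control and BM-MSC alone, 58 members were called. After UC-MSC 17 fell and 1 rose, against 16.7% and 20.4% (37.1%), at a median of −0.33 (0.09 over all genes). UC-MSC library 4 was high: Sdha gave 507, 518, 442 and 959 CPM, Atp5b 2102, 2437, 2278 and 3954 CPM and Cox4i1 591, 581, 736 and 1402 CPM, against 1012, 962, 949 and 934 CPM for Cox4i1 in Control. Libraries 1 to 3 of these genes lay below every Control library and library 4 above the Control range. Without library 4, 74 members fell and 1 rose, at a median of −0.60. For this refit and for the fit of Control and BM-MSC alone, the shares of all genes are not given here. Whether these counts exceed their background cannot be read from them.

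The 17 members that fell after UC-MSC with all 4 libraries were 15.3% of the 111 tested, near the 16.7% of all genes. Of these 17, 10 were assembly factors, which make up 26 of the 116 members (Cox20b among them was not tested). The highest library median after UC-MSC was 0.303 over complex I subunits and −0.23 over its assembly factors. Without library 4, 74 members fell, and the assembly factors among them are not counted here. Whether subunits and assembly factors differed was not tested. The 10 were Ndufaf1, Ndufaf3, Ndufaf4, Ndufaf6 and Ndufaf7 of complex I, Sdhaf3 and Sdhaf4 of complex II, Uqcc1 of complex III, and Cox15 and Cox19 of complex IV. Ndufaf4 gave 34.7, 37.5, 32.4 and 48.7 CPM (−0.60, adjusted p = 0.0043), and it was lower after BM-MSC too, at 42.2, 39.8, 40.04 and 31.3 CPM (−0.60, adjusted p = 0.017). The BM-MSC call of Ndufaf4 was lost without Control library 1, 2 or 3 or BM-MSC library 4 (−0.61 to −0.53, adjusted p = 0.051 to 0.066). The ranges of both MSC groups lay under that of Control for this gene. Ndufs1 gave 154, 159.6, 119 and 247 CPM after UC-MSC, against 299, 329.9, 316 and 298 CPM in Control (−0.87 ± 0.23 (SE), adjusted p = 0.0073), and 276, 283, 236 and 186 CPM after BM-MSC (−0.34, adjusted p = 0.38).

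Set against AKI, 48 members were lower and 3 higher after BM-MSC (17.1% and 16.3% of all genes), and 45 lower and 3 higher after UC-MSC (20.2% and 20.3%). The medians were −0.54 and −0.49 (0.00 and −0.02 over all genes). Without AKI library 1 the counts were 65 lower and 4 higher for BM-MSC, and without UC-MSC library 4 they were 77 lower and 3 higher for UC-MSC. Shares of all genes in these refits are not given here. Sdhc gave 370.5, 594, 594 and 663 CPM in AKI, 312, 329, 329 and 218 CPM after BM-MSC (−0.90, adjusted p = 0.0058) and 222, 218, 234 and 403 CPM after UC-MSC (−1.04, adjusted p = 0.0018). These comparisons cross the join in the therapy table, so table and treatment cannot be told apart here. Between the MSC groups 1 member was higher and 2 lower after UC-MSC, against 10% and 10.4% of all genes, with Cox8b (2.16), Uqcc1 (−0.38) and Cox15 (−0.47) called. Uqcc1 lost its call without BM-MSC library 1, 2 or 3 or UC-MSC library 1, 2 or 3 (adjusted p = 0.062 to 0.1), and Cox15 without BM-MSC library 1, 2 or 3 or UC-MSC library 3 (adjusted p = 0.055 to 0.083). Without the low-count filter neither was called (adjusted p = 0.11 for Uqcc1 and 0.061 for Cox15), nor was Uqcc1 with only the compared groups (adjusted p = 0.089). Fat markers, of a tissue that also expresses Cox8b, summed to 528 to 1660 CPM after UC-MSC and 139 to 318 after BM-MSC, with 4 of 5 tested markers higher after UC-MSC; their part in the Cox8b call was not tested. Without UC-MSC library 4, 8 members were lower and 1 higher between the MSC groups, with no share of all genes given here.

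Proximal tubule markers summed to 15690 to 18690 CPM in Control, 7346 to 12860 in AKI, 5503 to 12820 after BM-MSC and 2698 to 9522 after UC-MSC. Of 14 tested markers 5, 2 and 13 were lower in AKI, BM-MSC and UC-MSC. Their median log2 fold changes were −0.95, −0.69 and −1.67, beside 0.14, −0.38 and −0.33 over the members. Macrophage and monocyte markers were higher for 3, 7 and 5 of 10 and lower for 2, 0 and 1 (median log2 fold changes −0.25, 1.40 and 1.05), and neutrophil markers for 0, 4 and 4 of 4 tested. The part of these cells in the members' levels was not tested.

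Complex IV has alternative forms of several subunits, and 9 such genes are members. Cox6b2, the testis form of subunit 6b, was higher in 7 of the 8 groups set against their own controls, AKI being the exception. It gave 6.37, 5.14, 5.54 and 6.99 CPM in Control, 15.5, 15.04, 23.9 and 18.8 CPM at 6 h, 12.8, 17.1, 12.6 and 15.6 CPM at 24 h and 22.8, 19.1, 35.9 and 22.8 CPM at 72 h. The log2 fold changes were 1.60 ± 0.28 (SE), 1.27 ± 0.28 (SE) and 2.06 ± 0.29 (SE) (adjusted p = 2.4e-04, 8.3e-04 and 2.3e-06), and no library met the Control range. It gave 4.58, 4.49, 8.56 and 4.01 CPM in sham controls and 10.4, 13.9, 12.9 and 9.15 CPM at 24 h after sham surgery (1.09, adjusted p = 0.0048). In the therapy table it gave 22.9, 16.4, 33.4 and 21.7 CPM after BM-MSC (2.08, adjusted p = 0.0019), 16.1, 10.04, 10.6 and 27.1 CPM after UC-MSC (1.51, adjusted p = 0.0019) and 4.85, 8.15, 3.97 and 6.15 CPM in AKI (0.06, adjusted p = 0.91). The rises at 24 h after IRI and after sham surgery did not differ beyond the spread (0.20 ± 0.40 (SE), adjusted p = 0.78). As a share of the counts of Cox6b1 and Cox6b2 together it was 1.34, 1.14, 1.25 and 1.68% in Control, 8.11, 5.05, 9.64 and 7.24% at 72 h and 1.395, 1.499, 0.832 and 1.41% in AKI. Cox6b1, the common form, carried most of the counts in every library; these shares are not corrected for length.

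**Figure D5:**
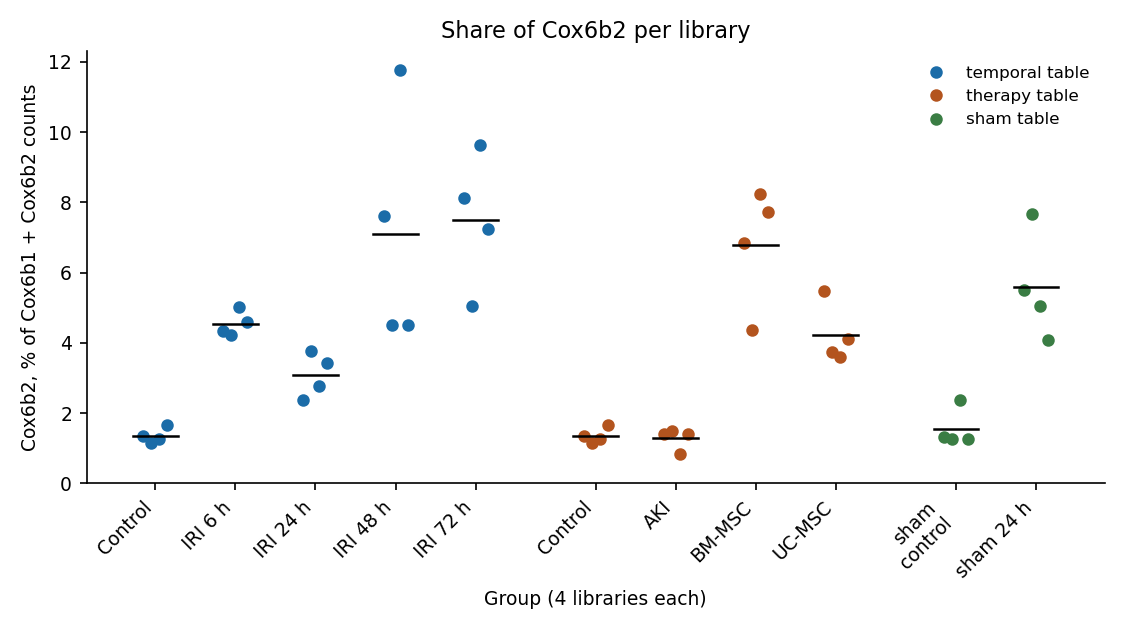
Cox6b2 as a percentage of the counts of Cox6b1 and Cox6b2 in each library (points) with the group mean (bar), for all groups of the 3 tables. Every library of the IRI time course, the MSC groups and sham 24 h lies above every library of its own controls, while AKI overlaps Control.

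The heart and muscle forms behaved otherwise. Cox8b gave 11.5, 8.64, 7.64 and 7.9 CPM in Control, 15.1, 32.1, 17.2 and 30.9 CPM in AKI (1.42, adjusted p = 0.014) and 1.69, 2.23, 3.897 and 2.56 CPM after BM-MSC (−1.78, adjusted p = 0.017). Cox7a1 gave 15.3, 12.4, 11.3 and 11.5 CPM in Control and 4.33, 7.42, 5.37 and 4.01 CPM after BM-MSC (−1.26, adjusted p = 0.02), and Cox6a2 gave 0.653, 1.17, 1.58 and 0.718 CPM in Control and 1.69, 12.6, 8.01 and 12.7 CPM in AKI (3.08, adjusted p = 5.3e-04). The BM-MSC calls were lost, for Cox8b, without Control library 1 or BM-MSC library 1 or 4 (adjusted p = 0.052 to 0.06) and, for Cox7a1, without Control library 1 or 2 or BM-MSC library 1 or 4 (adjusted p = 0.055 to 0.081). Brown fat also expresses these forms. Fat markers summed to 239 to 398 CPM in Control, 918 to 1742 in AKI and 139 to 318 after BM-MSC, with 5 of 5 tested markers higher in AKI and 1 of 5 lower after BM-MSC. In the temporal table they summed to 262 to 427 CPM in Control and 926 to 1795 at 24 h after IRI (1 of 5 higher). Cox8b, Cox7a1 and Cox6a2 were not called at that time. The fat marker Ucp1 is not in these sums because its Control counts differed between the tables. Markers of smooth and striated muscle, taken as 1 list, summed to 123 to 143 CPM in Control and 51.4 to 93.7 in AKI. Of 6 tested, 1 was higher and 3 were lower in AKI. The parts of fat and of muscle in these values were not tested. Cox4i2, the form of low oxygen, was called at 72 h (2.47, adjusted p = 0.048), from 0.956, 0.352, 1.45 and 0.209 CPM in Control to 3.28, 6.16, 7.21 and 0 CPM, levels of few counts with 72 h library 4 at 0. That call was lost without Control library 1, 2 or 4 or 72 h library 1, 2 or 3 (adjusted p = 0.052 to 0.13), without the low-count filter (adjusted p = 0.063) and with only the compared groups (adjusted p = 0.079).

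Ndufa4l2, the paralogue of Ndufa4 that is a known target of the hypoxia factor HIF, was lower in AKI. It gave 7.07, 7.99, 4.86 and 6.72 CPM in Control, 2.04, 1.67, 2.31 and 2.07 CPM in AKI, 5.79, 6.997, 9.54 and 12.1 CPM after BM-MSC and 10.96, 4.697, 8.67 and 6.93 CPM after UC-MSC. The AKI libraries lay below all others (log2 fold change −1.72 ± 0.30 (SE), adjusted p = 5.2e-04), and neither MSC group was called against Control. At 6 h after IRI it was at 0.62 (adjusted p = 0.49), and with only the compared groups in the fit it was called higher there (0.72, adjusted p = 0.033). Cox6c2, a named copy of Cox6c, had 0 counts in the AKI libraries, which allows up to 3, against 36 counts over the 4 Control libraries; reads shared with Cox6c make its level uncertain.

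Genes that work beside the chain without carrying such names were read from a list of 62 (ubiquinone synthesis, electron-transferring flavoproteins, cytochrome c and further assembly factors). At 24 h after IRI 25 of 60 tested fell and 6 rose, at 72 h 32 fell and 5 rose, and at 24 h after sham surgery 28 of 59 fell and 0 rose. Of all genes, 20.2% fell and 21.8% rose at 24 h after IRI, 29.6% and 26.7% at 72 h, and 13.1% and 7.7% after sham surgery. After UC-MSC 27 of 60 fell and 0 rose (16.7% and 20.4% of all genes). In AKI 5 of 60 fell and 9 rose, both smaller shares than the 15.1% and 20% of all genes. Coq8a, a kinase-like factor of ubiquinone synthesis, was at −2.77 at 24 h after IRI and Etfdh, which passes electrons from fatty acid oxidation to ubiquinone, at −2.21. Cycs, cytochrome c, was lower at 72 h (−0.99) and after sham surgery (−1.04) and higher in AKI (0.98).

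Of 17 regulators of mitochondrial biogenesis, 10 fell and 1 rose at 24 h, and 10 fell and 2 rose at 72 h, beside 20.2% lower and 21.8% higher of all genes at 24 h and 29.6% and 26.7% at 72 h. Ppargc1a, the coactivator PGC-1α, was at −1.69 at 24 h and −2.42 at 72 h, and was not called in AKI (−0.51) or after BM-MSC (−0.27), while after UC-MSC it was lower (−1.41). Esrrg, a nuclear receptor that acts with it, was at −2.26 at 24 h. Nrf1, the factor whose motif was counted in the promoters, was not called at 24 h (0.28) and was higher at 72 h (0.92). After sham surgery, where 82 members fell, 1 of the 17 regulators was lower (13.1% of all genes), Tfam (−0.59), which packages and transcribes mitochondrial DNA, and Ppargc1a was at −0.23 and not called.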

How the data were processed

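The authors deposited raw counts per gene in 3 tables from 40 samples; HTSeq, DESeq2 and the genome GRCm39/mm39 are named in the submitters' processing notes, without versions. All value columns were used (0 unused). From these counts, edgeR 4.0.16 quasi-likelihood tests were run per table over all genes that passed filterByExpr, with TMM scaling, and a joint fit compared IRI with sham. A call is a two-sided Benjamini-Hochberg adjusted p under 0.05. Repeated lines were reduced to 1 per name, and 85 names with ambiguous counts were left out. The test was tried on simulated data, in which genes drawn at random were changed by known folds. Of 2-fold changes it recovered 28.4% for IRI 24 h, 38.8% for AKI, 71.6% for sham and 22.4% for IRI beyond sham. Of 1.5-fold changes it recovered 1.49% to 29.9%, and of all its calls 3.39% to 6.82% were false. Few genes were changed in the simulation, for IRI 24 h 67 of 16295 by 2-fold. In the real IRI 24 h fit 42% of all genes were called. With few changed genes the adjusted p is stricter, so these rates are not those of members in the real fits. A gene not called may still have changed, and calls from different fits differ in sensitivity. Alternatives were DESeq2 1.42.0, its size factors, library totals, no low-count filter, a replicate block, only the compared groups, the ambiguous names kept, and leaving out each library.

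Coding lengths came from GENCODE M21 and promoters from RefSeq. The members and lists were chosen with earlier results of these data known. By rule, values per library are given for a list of 32 main and alternative subunits and factors and for up to 3 called members with the largest non-overlapping rises and falls per complex and role; Cox6b2, Cox11 and other members outside it were chosen after their values were seen. Same-numbered libraries did not deviate together (temporal, 40 pairs, correlations −0.16 to 0.10; therapy, 24 pairs, −0.53 to 0.28). Human reads were not analysed here.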

Additional observations from a re-analysis of the deposited data

Results flagged for a closer look

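Among 173 sets of 4 library values, 11 held a library that stood far from the other 3 by Dixon's test, which chance gives in about 1 of 20. UC-MSC library 4 was the high one for Sdha (958.6 CPM), Sdhc (402.9 CPM) and the median over all members (0.268 on the log2 scale). AKI library 1 was high for Sdha (1149 CPM), and BM-MSC library 4 was low for Sdhc (218.4 CPM). Control library 1 was high for Uqcc2 in the temporal (49.68 CPM) and therapy (46.31 CPM) scaling of the same counts, as was IRI 72 h library 3 (112.1 CPM). IRI 72 h library 1 was low for Uqcrc1 (161.6 CPM). For Cox6b2, sham control library 3 was high (8.556 CPM) and AKI library 3 had a low share (0.8322%).

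The change at 24 h differed between IRI and sham surgery for 52 members by the test of the difference itself, a comparison that crosses the join in the temporal table. Among those named, the log2 difference was −1.70 for Ndufs1, −0.90 for Uqcrc2 and −0.76 for Sdha, and 1.13 for Atp5e, 1.13 for Atp5g1, 1.39 for Uqcrq, 1.40 for Cox4i1, 1.88 for Ndufa2 and 2.09 for Uqcc2.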

How the results depend on the processing

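Counts of members called stayed within 1.5 times the reported count under every alternative for 24, 48 and 72 h against Control, 24 against 6 h, 48 against 24 h, sham, and IRI beyond sham. At 6 h, 37 became 21 with library totals, 23 without the low-count filter and 24 to 39 with single libraries left out. From 48 to 72 h, 2 became 4 with DESeq2, 4 with library totals, 1 with a replicate block, 0 with only the compared groups (edgeR; 3 at an unadjusted p under 0.05) and 1 to 5 with libraries left out. For BM-MSC, 5 became 12 with DESeq2, 58 with only the compared groups and 1 to 5 with libraries left out. For UC-MSC, 18 became 41 with library totals and 11 to 75 with libraries left out, and AKI (28) went from 16 to 37. Against AKI, BM-MSC (51) became 33 with library totals, and UC-MSC (48) became 30 with only the compared groups and 37 to 80 with libraries left out. UC-MSC against BM-MSC (3) became 5 with library totals, 1 without the filter and 1 to 9 with libraries left out. Library totals in place of TMM moved the median of all genes by up to 0.27 (BM-MSC against AKI). The shares of all genes under these alternatives are not given here, and the cause of these changes was not tested.

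Signs turned only for values not called. Cox7a2 at 24 h was −0.03 without the filter and ran from −0.04 to 0.04 with single libraries left out. Atp5e at 72 h was 0.11 with DESeq2, 0.11 with its size factors, 0.06 with only the compared groups and −0.16 to 0.01 with libraries left out. Cox6b2 in AKI was −0.10 with library totals and −0.16 to 0.20 with libraries left out. Uqcc2 after sham ran from −0.12 to 0.07, and the Cox6b2 difference between IRI and sham from −0.13 to 0.29.

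The replicate block is given only as a check, since same-numbered libraries share a number: it changed no count by over 1.5 times except that from 48 to 72 h (2 to 1). Of the genes named it ended the calls of Atp5g2 (adjusted p = 0.055) and Cox4i2 (adjusted p = 0.086) at 72 h, Cox11 from 48 to 72 h (adjusted p = 0.064), Uqcc2 in AKI (adjusted p = 0.054) and Uqcc1 between the MSC groups (adjusted p = 0.056). For the sham table and the joint fit with it, no paired analysis was possible because the sham columns carry no label number. Small counts limit Cox17, Cox4i2, Cox6c2 and Cox8b.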

Other observations

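Across the 105 tested members with an annotated coding length, the rank correlation of that length with the log2 fold change at 24 h after IRI was −0.53, against −0.12 across all genes tested; this is a description across genes, which are not independent replicates.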
